A study of Arabidopsis thaliana with 12 samples.

Results

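The features described here are 151 of the 3439 features of an Arabidopsis thaliana expression array whose intensity in roots of the kn09 mutant was at most 0.5 of that in wild-type (WT) roots. They were chosen on the deposited intensities themselves, without normalization. A feature had to read above 0 in all 12 samples, to have a WT mean of 0.4 or more, to have its highest kn09 value below its lowest WT value, and to have a kn09 mean at most 0.5 of its WT mean. These conditions held for 171 features, of which 20 were set aside because their gene was among the 100 brightest with a single annotated gene or was 1 of 6 genes left out by name. Of the 151 members, 17 carried 1 gene in the platform annotation and are named below, 42 carried several genes and 92 had no gene named here. A name may be wrong for its feature. Because the kn09 and WT values chose the members, every difference between the genotypes in them is a description, without a test.

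The study compared total RNA of kn09 roots with that of WT roots, 6 samples each, both of the ecotype Wassilevskija and both after 48 h on MS medium (Murashige and Skoog salts) with 100 mM glucose. The labels describe kn09 as a mutant that is hypersensitive to proline and cannot carry out proline catabolism in its mitochondria. They name no allele, no affected gene and no age, and they do not say whether samples 1 to 6 of a genotype were separate cultures. No untreated roots are among the samples, so glucose is shared by every value below. Intensities are given in relative units. The highest value of every sample was 100, reached by 1 to 4 features, and how the values were scaled is not given.

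As background, plants degrade proline to glutamate in mitochondria, through proline dehydrogenase and then pyrroline-5-carboxylate dehydrogenase. Sugars repress proline dehydrogenase, and proline that cannot be degraded is toxic to seedlings. None of 12 loci of proline synthesis, degradation and transport lay on an annotated feature, so no value of the pathway can be given here. The same was true of 18 root marker loci, and the labelled tissue could therefore not be checked against them. Of 13 green-tissue loci, 4 lay on features with 1 gene (LHB1B2, PRK, PSBW and SBPASE), and their summed intensity was 58.4 to 78.1 in WT and 67.6 to 86.2 in kn09. None of them was a member, all 4 were above 0 in every sample, and their part in the results below was not tested.

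Dim and moderately bright features read lower in kn09 in general, and the members have to be read against that. The median intensity over all features ran from 0.139 to 0.227 in WT samples and from 0.102 to 0.121 in kn09 samples. Between 153 and 235 features stood at exactly 0 in a WT sample, and between 398 and 522 in a kn09 sample. Among the 980 features that were above 0 in all samples with a WT mean of 0.4 or more, 232, or 23.7%, had every kn09 sample below every WT sample, while 31 had every kn09 sample above. In the same 980 features, 270, or 27.6%, had a kn09 mean at most 0.5 of the WT mean. The share was 34.8%, 32.5% and 37.9% for features with a WT mean of 0.4 to 0.6, 0.6 to 0.8 and 0.8 to 1.2. It was 20.8% from 1.2 to 2, 19.1% from 2 to 5 and 8.57% of the 105 features at 5 or more. Those 105 features had a median kn09 level of 94.2% of WT. The summed intensity of a sample was 3275 to 3404 in WT and 3015 to 3264 in kn09. In these samples, less RNA per cell, fewer cells of a type and differences in scanning, background correction or scaling cannot be told apart.

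The kn09 mean of the 151 members ran from 17.7% to just under 0.5 of the WT mean, with a median of 37.1%. Their WT means ran from 0.401 to 13.1, with a median of 0.763. By WT brightness, 48 members lay between 0.4 and 0.6, 31 between 0.6 and 0.8, 32 between 0.8 and 1.2, 19 between 1.2 and 2, 16 between 2 and 5, and 5 above that. The 17 named members were all dimmer than 0.8 in WT, because brighter features with 1 gene were left out by the rule. Their median kn09 level was 37.0% of WT, beside 39.8% for members with several genes and 36.1% for those with no gene named. The space between the genotypes was often narrow: the lowest WT value was at least 1.5 times the highest kn09 value in 28 members and under 1.1 times in 34.

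**Figure D1:**
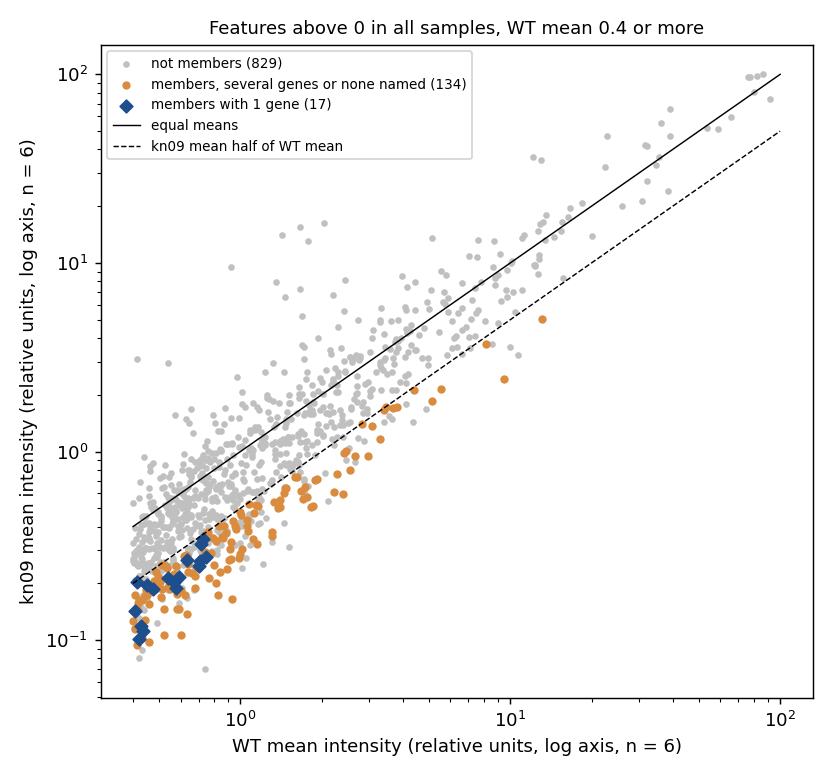
Mean intensity in WT (x axis) and kn09 (y axis), both on log axes in relative units with n = 6, for the 980 features above 0 in all samples with a WT mean of 0.4 or more. The 151 members (orange points, and blue diamonds for the 17 with 1 gene) lie on or below the dashed line at 0.5 of the WT mean, and the blue diamonds sit at the dim end.

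Proteins of organelle gene expression made up 3 of the named members. Plastids and mitochondria keep a small genome of their own, and nuclear genes supply most of the proteins that transcribe it, process its RNA and translate it. OTP70 (AT4G25270) is a pentatricopeptide repeat protein needed for splicing of a plastid RNA polymerase transcript. It read 0.259, 0.393 and 0.771 in WT (lowest, median and highest sample) and 0.130, 0.177 and 0.257 in kn09. Its genotypes nearly touched, since WT sample 6 at 0.259 stood just above kn09 sample 3 at 0.257, and WT samples 3 and 4 were well above the rest. The means were 0.476 ± 0.222 and 0.187 ± 0.0535 (SD, n = 6 each), which puts kn09 at 39.3% of WT.

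AT3G12930 belongs to the iojap-related proteins, whose relative in Escherichia coli silences ribosomes. Its WT samples read 0.412, 0.773 and 0.929 (lowest, median, highest) and its kn09 samples 0.282, 0.311 and 0.386. The kn09 values lay close together, whereas WT samples 1 and 2 at 0.412 and 0.485 were the nearest to them. The kn09 mean of 0.322 ± 0.0406 was 45.0% of the WT mean of 0.715 ± 0.221 (SD, n = 6 each). AT4G26370 encodes a protein with a NusB domain, named for a factor that prevents early transcription termination in Escherichia coli. It read 0.219, 0.435 and 0.627 in WT and 0.122, 0.135 and 0.189 in kn09, again with WT samples 1 and 2 lowest. Its means were 0.406 ± 0.157 and 0.142 ± 0.0238 (SD, n = 6 each), or 35.0% of WT.

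In the nucleus, 3 named members act on RNA, chromatin or traffic through the nuclear envelope. AGL103 (AT3G18650) is a MADS-box protein of the AGAMOUS-like family of DNA-binding regulators. Its WT samples read 0.543, 0.710 and 1.04 (lowest, median, highest) and its kn09 samples 0.207, 0.273 and 0.341. The genotypes were well apart, with the lowest WT sample at 1.59 times the highest kn09 sample. In both genotypes samples 3 and 4 were the highest pair of numbers. AGL103 was the brightest named member in WT, at a mean of 0.744 ± 0.205, and its kn09 mean was 0.276 ± 0.0547 (SD, n = 6 each), or 37.0% of WT.

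UBA1A (AT2G22090) is an RNA-binding protein named for its association with UBP1. WT values were 0.320, 0.666 and 0.746 (lowest, median, highest), and kn09 values were 0.104, 0.184 and 0.287. WT samples 1 and 2 stood at 0.336 and 0.320, near kn09 sample 3 at 0.287, while WT samples 3 to 6 were all above 0.6. The kn09 mean of 0.189 ± 0.0718 was 32.7% of the WT mean of 0.579 ± 0.198 (SD, n = 6 each). AT3G16310 is related to the nucleoporin NUP35 of vertebrates, a part of the nuclear pore. Its WT values were 0.441, 0.503 and 0.976, and its kn09 values 0.232, 0.261 and 0.324. WT samples 3 and 4, at 0.976 and 0.897, stood far above the other WT samples, which were at most 0.525. Its kn09 level was 42.3% of WT, with means of 0.631 ± 0.239 and 0.267 ± 0.0336 (SD, n = 6 each).

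Enzymes numbered 4. AT2G47390 is a serine peptidase of the prolyl oligopeptidase family that works in plastids. It read 0.239, 0.469 and 0.558 in WT (lowest, median, highest) and 0.0634, 0.101 and 0.206 in kn09. Of the named enzymes it had the lowest ratio, with a kn09 mean of 0.118 ± 0.0510 at 27.7% of the WT mean of 0.427 ± 0.134 (SD, n = 6 each). AT5G48440, an FAD-dependent oxidoreductase, read 0.492, 0.749 and 1.01 in WT and 0.253, 0.332 and 0.471 in kn09. Its genotypes lay close, with WT sample 1 at 0.492 and kn09 sample 4 at 0.471. The kn09 mean of 0.342 ± 0.0883 was 47.2% of the WT mean of 0.725 ± 0.195 (SD, n = 6 each).

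The remaining enzymes were both of NAD(P)-linked families. AT1G72640, with an NAD(P)-binding Rossmann fold, was the steadiest named member in WT, at 0.540 ± 0.0692, and read 0.214 ± 0.0355 in kn09 (SD, n = 6 each), or 39.6% of WT. All 6 of its WT samples lay between 0.456 and 0.620, and all 6 kn09 samples between 0.173 and 0.268. AT2G27680, of the aldo-keto reductase kind, was the named member nearest to the limit of the rule, at 49.3% of WT. Its WT samples ran from 0.286 to 0.535, with a mean of 0.414 ± 0.103, and its kn09 samples from 0.133 to 0.255, with a mean of 0.204 ± 0.0495 (SD, n = 6 each).

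Transport proteins numbered 2. AT2G29870 belongs to the major intrinsic proteins, the family of the aquaporins that pass water and small solutes. It read 0.250, 0.439 and 0.648 in WT (lowest, median, highest) and 0.0412, 0.119 and 0.142 in kn09. The lowest WT sample was 1.76 times the highest kn09 sample, the widest space among the 17 named members, and the kn09 mean of 0.111 ± 0.0376 was 25.6% of the WT mean of 0.435 ± 0.155 (SD, n = 6 each). AT2G47830 is a member of the cation efflux family, which moves metal ions out of the cytosol. It read 0.407, 0.551 and 0.864 in WT and 0.0544, 0.209 and 0.318 in kn09. The kn09 samples were spread over 5.84-fold, the most of any named member, and their mean of 0.204 ± 0.104 was 35.9% of the WT mean of 0.568 ± 0.168 (SD, n = 6 each).

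For the last 5 named members less is known. AT2G18920 had the lowest ratio of all 17, at 24.1%, from a WT mean of 0.419 ± 0.151 and a kn09 mean of 0.101 ± 0.0503 (SD, n = 6 each). Its samples read 0.305, 0.335 and 0.644 in WT (lowest, median, highest) and 0.0624, 0.0871 and 0.198 in kn09. WT samples 3 and 4 stood above the other WT samples, and kn09 sample 2 above the other kn09 samples. AT3G50130, of a plant family with a shared domain of unknown function, read 0.452, 0.704 and 1.03 in WT and 0.113, 0.265 and 0.337 in kn09. It was the 1 named member whose highest WT value was in sample 2. Its means were 0.6998 ± 0.218 and 0.247 ± 0.0865 (SD, n = 6 each), which puts kn09 at 35.3% of WT.

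AT4G21170 belongs to the tetratricopeptide-like repeat proteins. It read 0.362, 0.592 and 0.824 in WT (lowest, median, highest) and 0.172, 0.192 and 0.288 in kn09. By the means of 0.590 ± 0.196 and 0.216 ± 0.0528 (SD, n = 6 each), kn09 stood at 36.6% of WT. Its samples 5 and 6 were the lowest in WT and the highest in kn09, so that its genotypes came closest there. AT4G16410 read 0.545, 0.756 and 0.816 in WT and 0.173, 0.270 and 0.335 in kn09, with means of 0.708 ± 0.114 and 0.263 ± 0.0633 (SD, n = 6 each), or 37.1% of WT. Its WT samples were close together and its lowest WT value was 1.63 times its highest kn09 value. AT5G52530 had means of 0.450 ± 0.155 and 0.195 ± 0.0289 (SD, n = 6 each), or 43.4% of WT, and its highest WT value was in sample 4, at 0.750 against at most 0.429 in the other WT samples.

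**Figure D2:**
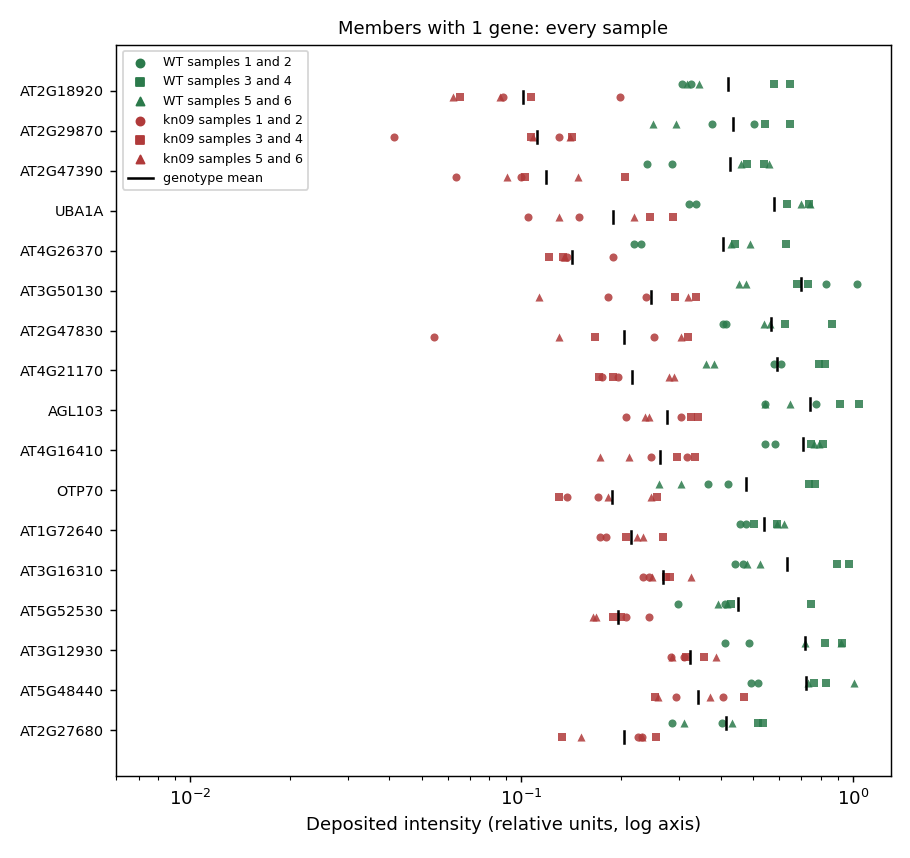
Deposited intensity (x axis, relative units, log axis) of each of the 17 members with 1 gene in each of 12 samples, WT in green above kn09 in red, with the marker shape giving the sample numbers and a black bar the mean. Every WT point of a gene lies to the right of every kn09 point of that gene, as the rule requires, and the space between them is smallest in OTP70, at 1.01 times, and largest in AT2G29870, at 1.76 times.

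Within WT, the median level of the members changed more along the numbers of the labels than that of the other features did. Relative to each feature's WT mean, the median member stood at 70.9% and 72.1% in WT samples 1 and 2, at 124.9% and 124.2% in samples 3 and 4, and at 101.9% and 103.8% in samples 5 and 6. In the 829 other features above 0 in all samples with a WT mean of 0.4 or more, the same medians ran only from 93.4% to 106.3%. The WT values of 112 of the 151 members, or 74.2%, were lowest in sample 1 or 2, as were those of 41.6% of the 829 others. Sample 3 or 4 was the highest WT sample in 107 members, or 70.9%, beside 44.3% of the others. The rule bears on these figures through its condition on the lowest WT value, so they are a description.

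In kn09 the order of the numbers was alike in members and in the other features. The median member stood at 31.8% and 32.6% of its WT mean in kn09 samples 1 and 2, at 40.7% and 41.1% in samples 3 and 4, and at 37.3% and 37.8% in samples 5 and 6. The kn09 values of 79 members, or 52.3%, were highest in sample 3 or 4 and those of 86, or 57.0%, were lowest in sample 1 or 2. In the 829 others these shares were 48.3% and 50.8%. Of the 17 named members, 11 had their highest kn09 value in sample 3 or 4 and 8 had their lowest in sample 1 or 2. Consecutively numbered samples were also more alike than others, in members and in other features. In WT the members differed by a median of 1.09-fold between consecutive numbers and 1.56-fold between others, averaged over pairs of samples. The values in kn09 were 1.18-fold and 1.32-fold. In the 829 others they were 1.098-fold and 1.44-fold in WT and 1.0995-fold and 1.25-fold in kn09. For the 17 named members in kn09 they hardly differed, at 1.28-fold and 1.29-fold. The SDs above take all 6 samples as separate, and the labels do not say whether consecutive numbers are repeat readings.

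**Figure D3:**
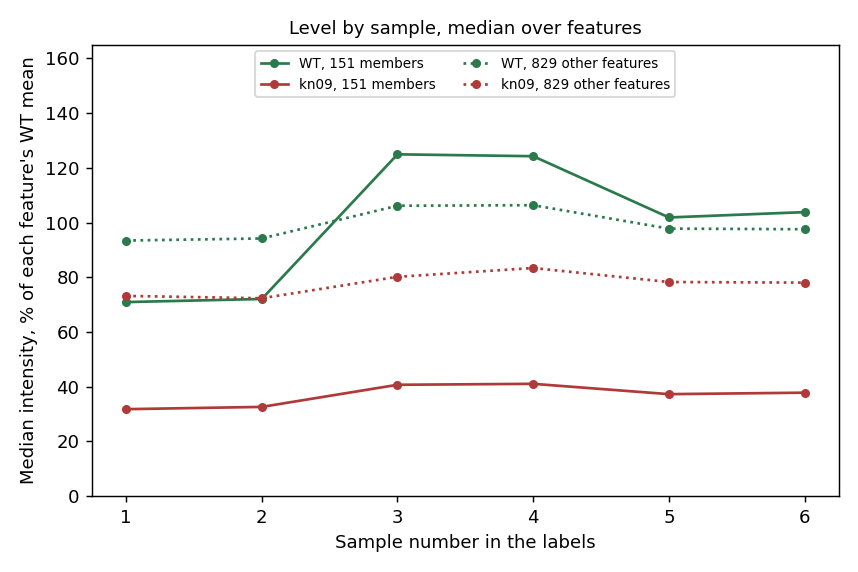
Median over features of the intensity as a percentage of the feature's WT mean (y axis) in each sample by its number (x axis), WT in green and kn09 in red. Solid lines are the 151 members, from 70.9% in WT sample 1 to 124.9% in WT sample 3 and from 31.8% to 41.1% in kn09, and dotted lines are the 829 other features, which run from 93.4% to 106.3% in WT.

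The size of the difference therefore changed with the sample numbers that were set against each other. Between samples 1 and 2 of both genotypes the median member had a kn09 level of 46.0% of WT, between samples 3 and 4 of 32.6% and between samples 5 and 6 of 39.8%. In the 829 other features the same medians were 78.2%, 81.3% and 83.3%. A level of at most 0.5 of WT held for 95 of the 151 members in samples 1 and 2, for 145 in samples 3 and 4 and for 119 in samples 5 and 6, or 62.9%, 96.0% and 78.8%. In the 829 others the shares were 14.7%, 21.5% and 16.8%, highest in samples 3 and 4 as well. In all 980 features, members included, they were 22.1%, 33.0% and 26.3%. The rule chose the members by their ratio of means and so took them out of the 829. The gap between members and others follows from that and is a description. A level of at most 0.5 held in all 3 sets for 69 members, in 2 sets for 70 and in a single set for 12. The same split was not counted for the other features.

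Of the named members, 9 were at most 0.5 of WT in all 3 sets: AT2G47390, AGL103, AT2G29870, AT3G50130, AT2G47830, AT2G18920, AT4G16410, UBA1A and AT1G72640. AGL103 stayed within a narrow range, at 38.7%, 34.0% and 40.2% in the order of the sets. AT1G72640 did so too, at 37.8%, 43.3% and 37.8%. By contrast, AT4G26370 stood at 72.7% of WT in samples 1 and 2 and at 23.9% in samples 3 and 4. OTP70 and AT4G21170 were at 76.1% and 76.3% of WT in samples 5 and 6, and at 25.7% and 22.3% in samples 3 and 4. AT2G27680 and AT3G16310 were at most 0.5 of WT in samples 3 and 4 alone, at 36.8% and 29.6%.

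**Figure D4:**
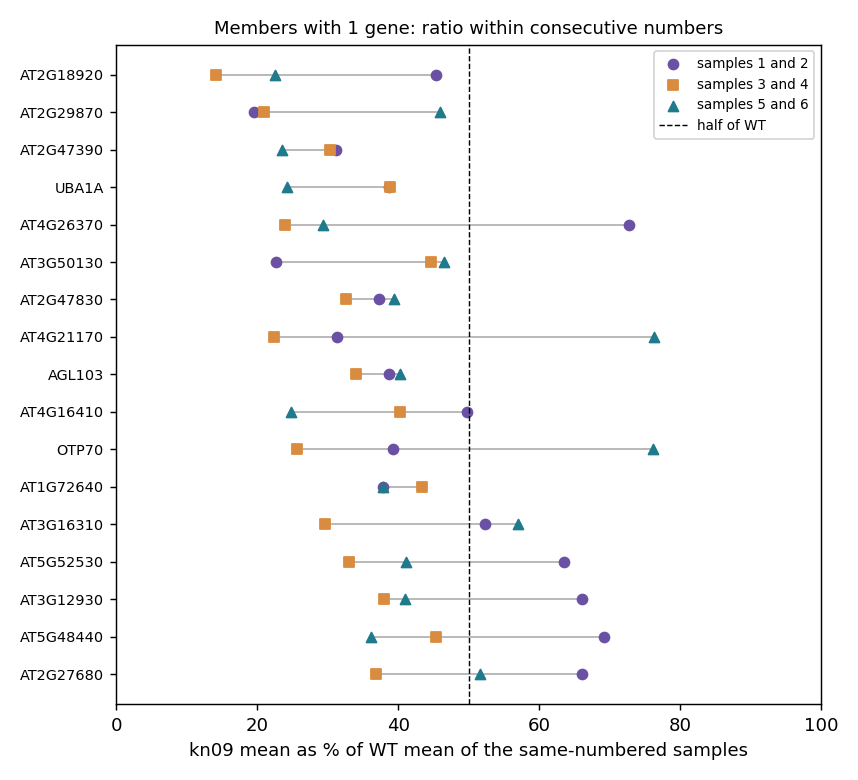
The kn09 mean as a percentage of the WT mean (x axis) for samples 1 and 2 (purple circles), 3 and 4 (orange squares) and 5 and 6 (blue triangles) of each of the 17 members with 1 gene. All 17 orange squares lie left of the dashed line at 0.5 of WT, as do 11 purple circles and 13 blue triangles.

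On a scale that sets the samples level, the members were lower in kn09 by less. After quantile normalization the median log2 difference, kn09 minus WT, was -0.91 over the 151 members and -0.06 over all 3439 features. With each sample scaled to its median over the features above 0 in all 12 samples, these were -0.82 and -0.31. On the intensities as deposited they were -1.40 and -0.85. All 151 members had a difference below 0 on each of these 3 scales, which the rule fixed in advance for the deposited one. A log2 difference of -1 or lower was reached by 147 members as deposited, by 58 after quantile normalization and by 50 after median scaling. Applied to median-scaled intensities, the rule of choice itself was met by 13 features, and applied to quantile-normalized ones by 24, with 0 named genes in either case. The rule kept its cutoff of 0.4 for the WT mean on the rescaled values, so a feature could miss it by level alone. Which condition each feature missed was not counted.

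Among the named members, the 3 that still reached a log2 difference of -1 after quantile normalization were AT2G18920 at -1.31 ± 0.29, AT2G29870 at -1.26 ± 0.27 and AT2G47390 at -1.10 ± 0.32 (SE). As deposited their differences were -2.10 ± 0.32, -1.99 ± 0.35 and -1.88 ± 0.32 (SE). At the other end, AT2G27680 had -0.36 ± 0.23 after quantile normalization and -1.02 ± 0.24 as deposited (SE). AT1G72640 had -0.72 ± 0.18 and -1.34 ± 0.17 (SE) on the same 2 scales. In limma on quantile-normalized values, at an adjusted p of 0.05 over all features, 88 of the 151 members and 8 of the 17 named ones passed as lower, where 6.31% of all features did. As deposited all 151 passed, where 33.7% of all features did, and after median scaling 71, where 9.54% did. The rule used the same contrast, so these counts are no evidence about the members. With the replicate number as a block 45 members passed as lower, where 3.37% of all features did. With consecutive samples as a random block 17 members and 0 named ones passed as lower, where 0.785% of all features did. With means of consecutive samples 0 members passed in limma, where 0.0291% of all features did. In that fit 74 members had an unadjusted p under 0.05 as lower, where 8.4% of all features had.

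**Figure D5:**
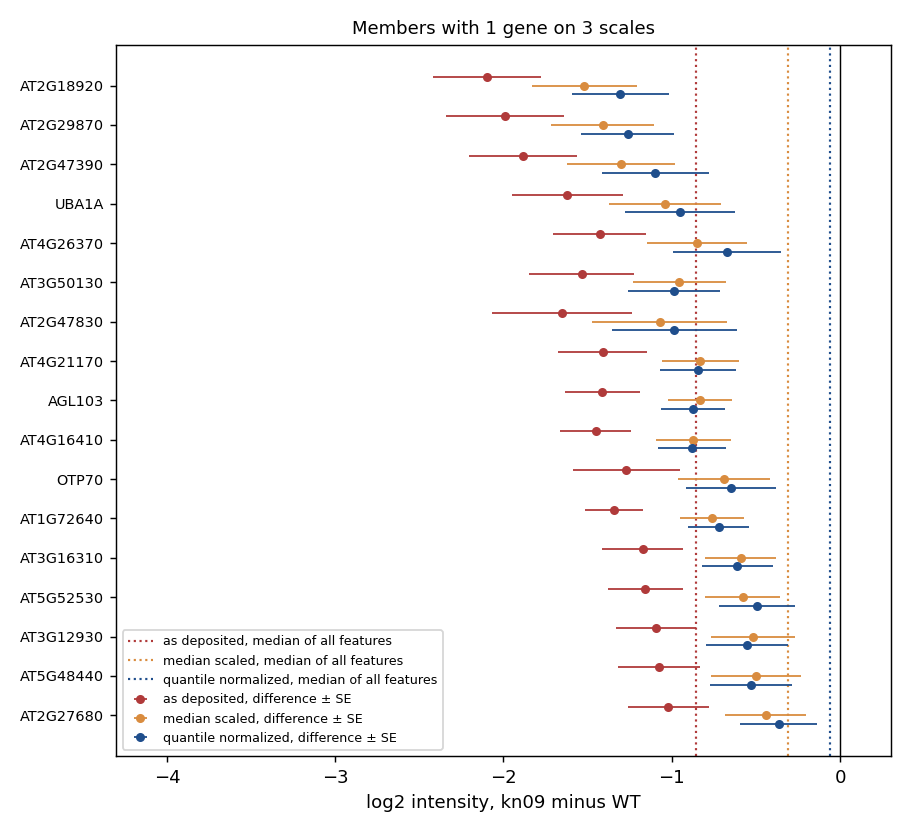
The log2 difference, kn09 minus WT, with its SE (x axis) of the 17 members with 1 gene, on the deposited (red), median-scaled (orange) and quantile-normalized (blue) intensities. The dotted lines mark the median of all features on each scale, at -0.85, -0.31 and -0.06, and every gene lies to the left of its line on all 3 scales.

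Ranks within a sample do not depend on any scaling of that sample. By mean rank over the 6 samples of a genotype, the median member stood at percentile 81.7 of the 3439 features in WT and at percentile 71.1 in kn09. Over the 980 features above 0 in all samples with a WT mean of 0.4 or more, the medians were 84.2 and 84.9. Every one of the 151 members had a lower mean rank in kn09, as did 540 of the 980. The ranks of the genotypes did not overlap in 53 members, where this held for 77, or 7.86%, of the 980 features, members included. The rule chose the members on the same values, so their lower ranks are a description and no evidence about them.

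The named members whose ranks did not overlap were AGL103, AT2G29870, AT3G50130, AT4G16410 and AT1G72640. AT2G29870 was at mean percentile 71.7 in WT and 49.2 in kn09, with its lowest WT sample at 64.1 and its highest kn09 sample at 57.0. AT4G16410 was at 81.3 and 70.1, and AT1G72640 at 76.7 and 66.1. AT2G18920 moved by the most, from 70.2 to 46.1, although kn09 sample 2 at 66.2 overlapped with the lowest WT sample at 63.0. AT3G12930 moved the least among the named members, from 80.4 to 74.5.

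The values next to the limits of the rule were as follows. The dimmest named members were AT4G26370 and AT2G27680, with WT means of 0.406 and 0.414, and AT4G07670 and AT2G25870 lay just outside with 0.3999 and 0.397. By the ratio of means, AT2G27680 at 49.3% and AT5G48440 at 47.2% were inside, and AT1G09200 at 50.7% and AT3G47100 at 55.8% outside. By the space between genotypes, OTP70 had its lowest WT value at 1.01 times its highest kn09 value, and AT4G24090, outside, had 0.994 times. At the bright end AGL103 had a WT mean of 0.744, and AT4G15840 and AT4G01810, left out among the 100 brightest, had 0.819 and 0.822. In all, 33 features with 1 gene missed the rule only by their WT mean, 16 only by an overlap, 15 only by being among the 100 brightest and 4 only by the ratio.

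A second look at a named member was possible for AT3G50130 alone, through another feature that the annotation gives to it together with further genes. That feature was no member by the rule, which rested on the same contrast, so its values are a description too. The WT samples averaged 1.47 ± 0.419 and the kn09 samples 0.846 ± 0.158 (SD, n = 6), or 57.6% of WT. Its log2 difference after quantile normalization was -0.43 ± 0.24 (SE). Over 94 pairs of features with the same annotation, log2 differences had r = -0.07, so this feature may not measure AT3G50130.

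By their locus names, 1 of the named members lies on chromosome 1, 6 on chromosome 2, 4 on chromosome 3, 4 on chromosome 4 and 2 on chromosome 5. The 67 features with 1 gene that could have been members numbered 12, 17, 14, 13 and 11 in the same order. No label gives the place on the array of a feature number in the table. Among pairs of the 980 features above 0 in all samples with a WT mean of 0.4 or more that lay 1 to 24 numbers apart, the share in which both were members ran from 1.66% to 5.33% by distance, with a median of 2.58%. It was highest at 22 numbers apart, with 13 of 244 pairs, and stood at 5.09% at 6 apart, 5.05% at 12 apart and 4.25% between direct neighbours. At 18 apart it was 2.0% and at 24 apart 3.44%. The part of position in the results was not tested.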

How the data were processed

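One table of intensities per feature and sample was used, as deposited by the authors. Its scale is linear, with no value below 0 and a top value of 100 in every sample. Scanning, background correction and scaling are not given in the sources used here. Precision is limited by the number of arrays. All 12 columns were used.

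The members were found on the deposited intensities. For differences, intensities were quantile normalized in limma 3.58.1 (R 4.3.3), zeros and values under the 1st percentile of positive values (0.00620) were set to that floor, and log2 values were fitted with lmFit and eBayes, genotype as the only term, 2-sided, with Benjamini-Hochberg adjustment over 3439 features. A p-value covers only the spread among these samples, and that spread may be technical.

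Gene names came from the platform annotation, updated by Entrez identifier to TAIR10.1, which matched 690 of 692 features with 1 gene. Log2 differences of 94 pairs of features with the same annotation had r = -0.07, across features, which are not independent, so a name may be wrong for its feature. Roles are general knowledge and were assigned after the members were known. The rule for detail gave the lowest, median and highest sample for members among the 8 brightest in WT or the 8 with the lowest ratio, and the same values or ranges of OTP70, AT1G72640 and AT2G27680 were added after they were seen. A list of 8 sugar response loci had 0 features with 1 gene and 1 with several genes, which was not a member. The members and lists were chosen with earlier results of these data known. No sequences were used.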

Additional observations from a re-analysis of the deposited data

Results flagged for a closer look

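Of 34 sets of 6 deposited values checked, those of the 17 named members in each genotype, 4 held a sample far from the others. About 1 in 20 would by chance if the 6 values were independent. Consecutively numbered WT samples were more alike than others, and the rule used the same values, so that rate need not hold here. AT2G29870 read 0.0412 in kn09 sample 1, below the nearest kn09 sample at 0.107. AT4G26370 read 0.189 in kn09 sample 1, above the nearest at 0.138. AT2G18920 read 0.198 in kn09 sample 2, above the nearest at 0.107. AT5G52530 read 0.750 in WT sample 4, above the nearest at 0.429.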

How the results depend on the processing

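The number of features that met the rule was 151. It was 13 with median scaling and 24 with quantile normalization, both with the WT mean cutoff of 0.4 kept on the rescaled values. It was 95 at a ratio of at most 0.4, 251 at a WT mean of 0.2 or more and 72 at 0.8 or more. Without samples 1 and 2 of both genotypes, an alternative added after seeing the data, it was 270. Leaving out 1 sample gave 130 to 197, with at least 126 of the 151 kept. The 88 members called lower became 151 as deposited, 17 with consecutive samples as a random block, 0 with means of consecutive samples, and, added later, 9 without samples 3 and 4 and 11 without samples 5 and 6 of both genotypes. Leaving out 1 sample gave 41 to 103, the lowest without WT sample 3. Counts under 59 also followed without WT samples 4, 5 or 6 (46, 54 and 53) and without kn09 samples 1, 2 or 4 (49, 42 and 47). With the replicate number as a block 45 were called. Deviations of same-numbered samples correlated at 0.0683 to 0.0995, under 0.1 in all 6, although each WT sample correlated best with its own number. The median log2 difference of the members was -1.40 as deposited, and -1.003 to -0.863 when 1 sample was left out. For single named genes, 0 of 374 values changed sign, 69 lost and 24 gained the call. The sign could not change as deposited, where the rule fixed it. Nor could it in the fits with blocks, with means of consecutive samples or with only features above 0, which repeat the main difference. The rule used the same contrast, so the unchanged signs are no evidence about the genes. The cause of these changes was not tested. Low signal limits what can be read, since all named members had a WT mean under 0.8.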
